A study of Mus musculus with 6 samples.

Results

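The 35 genes described here are transcribed by the endothelial cells that line blood vessels, and they were measured in bulk RNA of mouse retinal pigment epithelium (RPE). They were taken by symbol from a deposited table of 54532 genes, for their known roles at endothelial junctions, in endothelial transcription, in fenestration and at the cell surface. All 35 symbols were found once each, and 34 of the 35 passed the filter on low counts and were tested. Aplnr did not pass. The study collected RPE 5 h after light onset from 3 Abca4-/- mice (Abca4KO) and 3 wild-type mice (WT), with 1 library per mouse. The Abca4KO mice were the Jackson line Abca4tm1Ght/J and the WT mice were 129S1/SvlmJ. Both carried the Leu450 form of Rpe65 and were kept on a standard diet in 12-h cyclic light. Line and genotype changed together, so a difference between them cannot be told apart from a difference between lines, and the labels used here give neither age nor sex.

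The RPE is an epithelium without vessels of its own. It lies on Bruch's membrane, behind which the choriocapillaris, a bed of fenestrated capillaries, supplies it and the photoreceptors. Endothelial cells are held together by VE-cadherin and claudin junctions, owe their identity to transcription factors of the ETS and SOXF families, and respond to angiopoietins and vascular endothelial growth factor through receptor tyrosine kinases. In a bulk sample, a change in the number of endothelial cells collected and a change in RNA per endothelial cell cannot be told apart.

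Each library held between 17047286 and 19841307 counts, and 3 counts corresponded to between 0.152 and 0.174 CPM, the count scaled to library size. Such floors cover counting error only. Abca4 (ENSMUSG00000028125, chromosome 3, 122044443 to 122180123 in mm10) was at 32.6, 39.1 and 36.8 CPM in Abca4KO libraries 1, 2 and 3, against 955, 932 and 968 CPM in WT libraries 1, 2 and 3, so every library matched its label (log2 fold change -4.72, SE 0.10, edgeR adjusted p = 4.48e-06). Most RPE markers were above all of the 35 genes. Rpe65 had a mean of 2498 CPM per kilobase of gene length over the 6 libraries, against 77.9 for Plvap, the highest of the 35, and 5.41 for Pecam1. The RPE markers Mitf, at 30.0, and Best1, at 2.80, were below Plvap. The 35 genes together took 0.126%, 0.126% and 0.177% of the counts of Abca4KO libraries 1, 2 and 3, against 0.0906%, 0.134% and 0.0785% in WT libraries 1, 2 and 3. Library WT 2 stood apart in interferon-induced genes, whose summed level was 1981 CPM there and between 181.9 and 269.7 CPM in the other 5 libraries. Library Abca4KO 1 had the highest level of rod photoreceptor markers, 3479 summed CPM against 702.7 to 1831 CPM in the other 5. Values without these libraries stand beside the results of the endothelial genes and of the marker lists that they move most.

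The rows cannot show which vessels the transcripts came from. Per kilobase, Plvap, which builds the diaphragms of fenestrated endothelium such as the choriocapillaris, was the most abundant of the 35 at 77.9 CPM, followed by Eng at 37.7, Plxnd1 at 14.1, Cldn5 at 13.8 and Podxl at 13.1. The least abundant were Aplnr at 0.181, Gpihbp1 at 0.511 and Tal1 at 0.949 CPM per kilobase. Genes listed for barrier-forming retinal and brain endothelium were counted as well, among them Slco1a4 at 86.3 and Mfsd2a at 26.1 CPM per kilobase. Slco1a4 was thus above all of the 35 genes, and it was lowest in WT 2, at 469 CPM. Mfsd2a, at 55.6 CPM in WT 2, was lower there than in the other WT libraries. Which cells transcribed these genes was not tested. Since the vessels of origin cannot be told, the 35 genes are called endothelial here.

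The RefSeq promoter table (build GRCm38.p6) holds 15 of the genes. Promoter sequence is shown for 4 of these, those with the smallest p-values among the genes with a single promoter there. ETS factors are among the genes measured, and one form of their motif was looked for. Each run is the 250 bases before the annotated start site, 5′ to 3′ on the gene's strand, with matches to the ETS-type motif AGGAAG, on either strand, in capitals.
Clec14a (chr12:58269259-58269508, minus strand): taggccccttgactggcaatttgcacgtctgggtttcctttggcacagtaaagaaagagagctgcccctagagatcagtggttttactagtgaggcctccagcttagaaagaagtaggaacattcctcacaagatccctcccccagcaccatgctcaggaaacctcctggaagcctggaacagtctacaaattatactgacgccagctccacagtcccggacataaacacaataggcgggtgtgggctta
Tie1 (chr4:118489850-118490099, minus strand): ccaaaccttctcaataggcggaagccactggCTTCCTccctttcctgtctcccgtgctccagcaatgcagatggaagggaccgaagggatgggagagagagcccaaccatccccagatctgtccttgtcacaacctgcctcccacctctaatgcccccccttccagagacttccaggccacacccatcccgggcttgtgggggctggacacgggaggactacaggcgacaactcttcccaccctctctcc
Eng (chr2:32646345-32646594, plus strand): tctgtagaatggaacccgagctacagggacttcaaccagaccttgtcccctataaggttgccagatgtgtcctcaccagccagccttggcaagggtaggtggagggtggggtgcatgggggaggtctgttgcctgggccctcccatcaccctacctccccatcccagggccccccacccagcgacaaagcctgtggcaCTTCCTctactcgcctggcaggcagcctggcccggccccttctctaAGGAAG
Emcn (chr3:137340828-137341077, plus strand): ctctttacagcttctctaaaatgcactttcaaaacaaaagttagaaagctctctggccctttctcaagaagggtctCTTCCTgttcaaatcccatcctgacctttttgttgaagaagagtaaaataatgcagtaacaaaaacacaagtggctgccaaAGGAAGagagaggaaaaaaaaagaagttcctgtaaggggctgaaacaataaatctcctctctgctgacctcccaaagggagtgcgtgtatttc
The letters AGGAAG or their reverse complement CTTCCT occurred in the 250 bases upstream of 10 of the 15 genes (11 of 20 promoters, 55.0%), beside 29.5% of all 32851 promoters of the table. The SOX-type motif AACAAT stood in 3 of the 20 promoters (beside 9.42% of all) and the GATA-type motif AGATAA in 3 (beside 9.99%), again on either strand, and neither overlaps the ETS-type letters. Eng and Emcn had 2 ETS-type matches each, Tie1 had 1 and Clec14a had none in this window. Only the exact letters were searched, and the shorter ggaa within them does occur in the Clec14a run. A match is a description of the letters and not a bound site.

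The comparison asks whether the endothelial transcripts in the RPE sample differ between Abca4KO and WT mice. Most of the 35 genes were counted more often in the Abca4KO libraries, but none passed the test over all genes. Of the 34 tested, 31 had a positive log2 fold change (Abca4KO minus WT), beside 47.8% of all 17340 tested genes, and the median was 0.52, beside -0.011 over all tested genes. In edgeR's quasi-likelihood test with Benjamini-Hochberg adjustment 0 of the 34 passed an adjusted p of 0.05, beside 0.0461% of all tested genes. At an unadjusted p under 0.05, 12 of the 34 were higher in Abca4KO and 0 lower, beside 3.15% of all tested genes that were higher at that limit and 7.02% in either direction. DESeq2 called 3 of the genes, Clec14a, Vwf and Ptprb, and called 0.366% of all genes it tested. Limma-voom with sample weights called 0, beside 0.179% of all genes, and 29 were higher at an unadjusted p under 0.05, beside 8.96%. In 6 genes, Clec14a, Sox18, Sox7, Tie1, Myct1 and Vwf, all Abca4KO libraries were above all WT libraries, beside 5.93% of all tested genes separated in that direction and 12.8% in either.

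**Figure D1:**
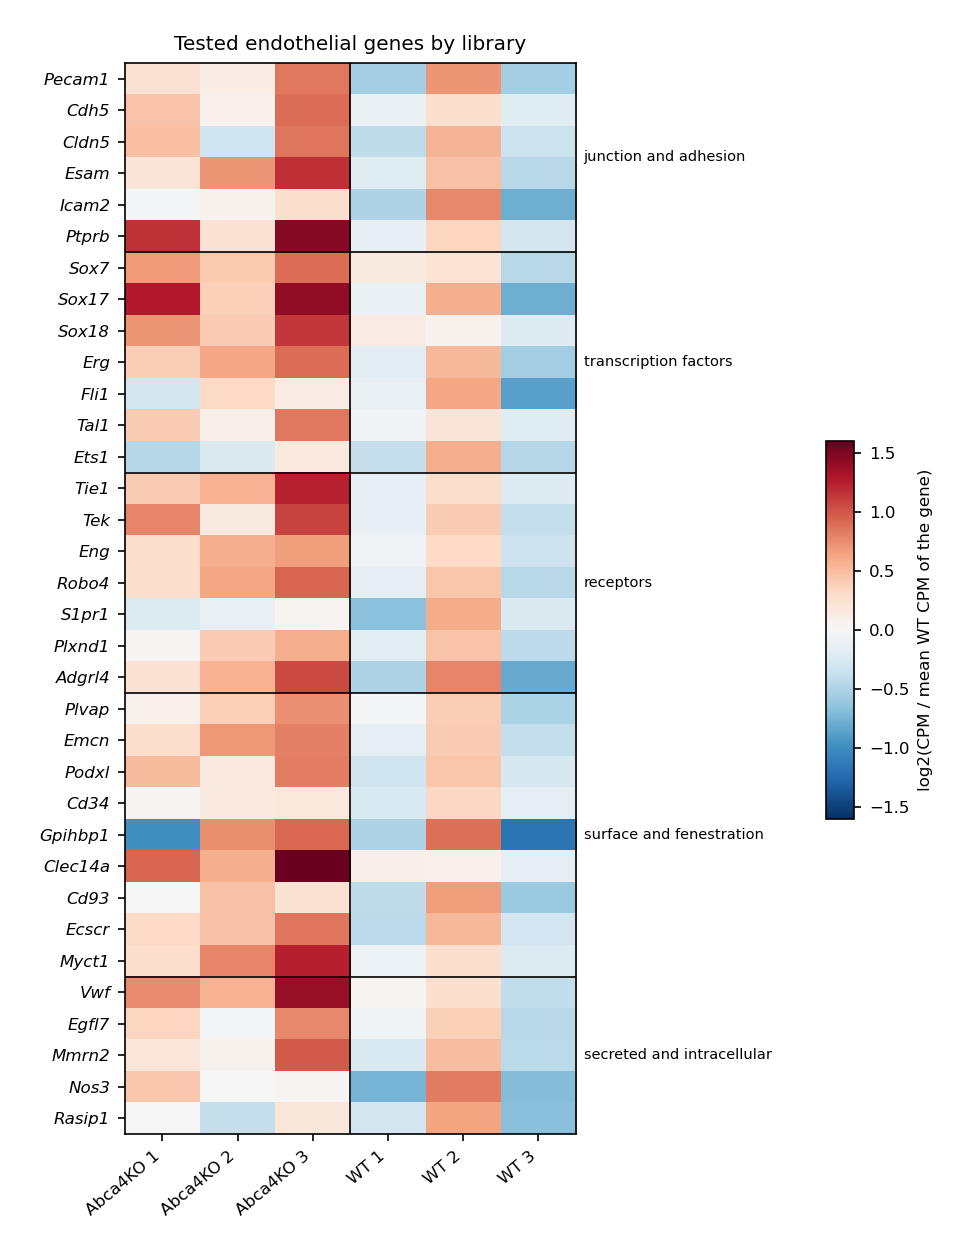
Level of the 34 tested endothelial genes (rows, grouped by role) in each library (columns, Abca4KO left of WT), as log2 of the CPM over the gene's mean WT CPM. Library Abca4KO 3 is the highest of the 6 in 26 genes, WT 3 the lowest in 27, and WT 2 is above both other WT libraries in 32.

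Junction and adhesion genes were all positive, 6 of 6, and their median log2 fold change was 0.47. Ptprb (chromosome 10, 116275523 to 116389535), the phosphatase VE-PTP that acts on VE-cadherin and on Tek, was at 68.8, 36.4 and 84.8 CPM in Abca4KO 1, 2 and 3 and 28.2, 39.4 and 25.3 CPM in WT 1, 2 and 3. Libraries 1 and 3 of Abca4KO were above all WT libraries, while Abca4KO 2 was just under WT 2. Its log2 fold change was 1.03 (SE 0.31, adjusted p = 0.616). Esam (chromosome 9, 37528078 to 37538319), an immunoglobulin-type adhesion molecule of tight junctions, was at 15.9, 22.5 and 31.03 CPM in Abca4KO and 12.04, 19.2 and 10.2 CPM in WT, with the lowest Abca4KO library under WT 2 (log2 fold change 0.75, SE 0.31, adjusted p = 0.706). Cdh5, which encodes VE-cadherin, was at 35.3, 26.9 and 47.8 CPM in Abca4KO and 23.9, 30.8 and 22.6 CPM in WT. Abca4KO 2 lay inside the WT range for Cdh5, and its log2 fold change was 0.51. Pecam1, which encodes the adhesion molecule CD31, was at 33.9, 31.01 and 51.4 CPM in Abca4KO against 19.6, 46.4 and 19.7 CPM in WT. WT 2 was more than 2-fold above the other WT libraries for Pecam1 and second only to Abca4KO 3. The tight junction gene Cldn5 was at 23.3, 13.4 and 30.3 CPM in Abca4KO and 12.6, 24.3 and 13.2 CPM in WT. Icam2, a ligand of leukocyte integrins, was at 7.92, 8.36 and 9.59 CPM in Abca4KO and 5.71, 13.7 and 4.68 CPM in WT, and its highest library was WT 2. Cldn5 and Icam2 overlapped between the genotypes, with log2 fold changes of 0.42 and 0.10.

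Among 7 transcription factors 6 were positive, and the 3 SOXF genes were the highest of the group by fold change. Sox18 (chromosome 2, 181669836 to 181671640) was at 24.6, 19.9 and 32.8 CPM in Abca4KO and 16.5, 15.6 and 12.96 CPM in WT, without overlap (log2 fold change 0.78, SE 0.20, adjusted p = 0.570). Sox17 (chromosome 1, 4490931 to 4497354), known for its role in arteries, was at 8.63, 4.64 and 9.53 CPM in Abca4KO and 3.30, 5.32 and 2.07 CPM in WT (log2 fold change 1.09, SE 0.41, adjusted p = 0.691). Abca4KO 2 was below WT 2 for Sox17, while the other Abca4KO libraries were above all WT libraries. Sox7, which acts redundantly with the other SOXF factors in vessel development, was at 4.87, 4.08 and 5.64 CPM in Abca4KO and 3.35, 3.54 and 2.23 CPM in WT, without overlap (log2 fold change 0.67). The 3 ETS factors gave unequal values. Erg, which maintains endothelial identity, was at 11.5, 13.6 and 16.4 CPM in Abca4KO and 7.80, 12.6 and 5.99 CPM in WT (log2 fold change 0.65). Fli1 was at 10.6, 16.2 and 14.2 CPM in Abca4KO and 11.9, 19.9 and 7.13 CPM in WT. Ets1 was at 33.3, 38.96 and 50.8 CPM in Abca4KO and 35.3, 68.5 and 33.3 CPM in WT. Both had their highest value in WT 2, with log2 fold changes of 0.070 and -0.16, and both are also active in lymphocytes and other blood cells. The positive value of Fli1 was negative without WT 3 (-0.22) and without Abca4KO 2 (-0.064), and the negative value of Ets1 was positive without WT 2 (0.26). Tal1, a factor of blood and endothelial development, was at 4.62, 3.66 and 6.22 CPM in Abca4KO and 3.35, 4.03 and 3.05 CPM in WT (log2 fold change 0.47).

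Of 7 tested receptors 6 were positive, and the median log2 fold change was 0.63. Tie1 (chromosome 4, 118471191 to 118490061), the orphan partner of the angiopoietin receptor, was at 38.1, 42.2 and 67.3 CPM in Abca4KO and 26.2, 35.1 and 24.99 CPM in WT. The genotypes did not overlap for Tie1 (log2 fold change 0.77, SE 0.24, adjusted p = 0.616). Tek, the angiopoietin receptor itself, was at 27.6, 17.6 and 33.8 CPM in Abca4KO and 14.6, 21.1 and 12.2 CPM in WT, with Abca4KO 2 inside the WT range (log2 fold change 0.72). Eng (chromosome 2, 32646595 to 32682669), the transforming growth factor co-receptor endoglin, was at 153, 187 and 200.3 CPM in Abca4KO and 120.3, 156 and 99.9 CPM in WT. Abca4KO 1 lay just under WT 2, and the log2 fold change was 0.52 (SE 0.18, adjusted p = 0.639). Robo4, a roundabout receptor of endothelium that stabilises vessels, was at 13.3, 17.1 and 21.4 CPM in Abca4KO and 10.2, 15.2 and 8.22 CPM in WT (log2 fold change 0.63). Adgrl4, an adhesion G protein-coupled receptor, was at 12.7, 15.9 and 22.7 CPM in Abca4KO and 7.75, 18.7 and 6.21 CPM in WT (log2 fold change 0.65). For Robo4 and Adgrl4 WT 2 stood inside the Abca4KO range. Plxnd1, the receptor of semaphorin 3E, was at 91.6, 119.7 and 135 CPM in Abca4KO and 79.7, 123 and 67.2 CPM in WT. S1pr1, the sphingosine-1-phosphate receptor of endothelium and lymphocytes, was at 20.7, 22.3 and 24.8 CPM in Abca4KO and 15.4, 36.6 and 20.5 CPM in WT. WT 2 held the highest S1pr1 level, and its log2 fold change of -0.097 was 0.33 without WT 2, while Plxnd1 had 0.36. Aplnr, the apelin receptor, had 6, 1 and 39 counts in Abca4KO 1, 2 and 3 and 9, 5 and 12 counts in WT 1, 2 and 3, and was too low to test.

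All 9 genes of the cell surface and of fenestrae were positive, and their median log2 fold change was 0.52. Clec14a (chromosome 12, 58264720 to 58269290), an endothelial C-type lectin, had the smallest p-value of the 34 genes. It was at 26.4, 20.7 and 41.4 CPM in Abca4KO and 14.6, 14.5 and 12.4 CPM in WT, so that the means were 29.5 ± 10.7 and 13.9 ± 1.25 CPM (SD, n = 3 each). The log2 fold change was 1.09 (SE 0.25, adjusted p = 0.520). Its relative Cd93 behaved otherwise, at 42.98, 59.2 and 50.8 CPM in Abca4KO and 32.4, 68.02 and 28.4 CPM in WT, with its highest level in WT 2 (log2 fold change 0.25). Whether the 2 fold changes differ was not tested. Plvap was at 138, 172 and 220.4 CPM in Abca4KO and 129.9, 175 and 93.1 CPM in WT, where WT 2 exceeded Abca4KO 1 and 2 (log2 fold change 0.42). Emcn (chromosome 3, 137341067 to 137432185), the sialomucin of capillaries and veins, was at 65.4, 87.1 and 93.8 CPM in Abca4KO and 48.9, 71.03 and 41.4 CPM in WT. Abca4KO 1 lay between WT 2 and the other WT libraries for Emcn (log2 fold change 0.61, SE 0.22, adjusted p = 0.679). Podxl, a podocalyxin that keeps vessel lumens open, was at 83.8, 65.7 and 104 CPM in Abca4KO and 47.3, 80.2 and 49.1 CPM in WT. Its relative Cd34 was at 52.6, 57.5 and 57.9 CPM in Abca4KO and 43.8, 64.96 and 46.4 CPM in WT, with WT 2 highest. The log2 fold change was 0.52 for Podxl and 0.12 for Cd34. Ecscr, a surface regulator of endothelial migration, was at 6.34, 7.07 and 9.24 CPM in Abca4KO and 3.82, 7.36 and 4.14 CPM in WT (log2 fold change 0.56). Myct1, a membrane protein of endothelium, was at 2.74, 3.92 and 5.40 CPM in Abca4KO and 2.15, 2.74 and 1.96 CPM in WT (log2 fold change 0.81). Its genotypes were separated by less than the counting error, 2.740 CPM in Abca4KO 1 against 2.738 CPM in WT 2. Gpihbp1, which carries lipoprotein lipase to the capillary lumen, had 11 to 36 counts per Abca4KO library and 9 to 38 per WT library, so that its log2 fold change of 0.44 had an SE of 0.69.

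Among 5 secreted and intracellular products, Vwf (chromosome 6, 125546774 to 125686679) differed most. The von Willebrand factor gene was at 86.4, 75.5 and 135 CPM in Abca4KO and 52.9, 61.9 and 38.98 CPM in WT, with means of 98.9 ± 31.5 and 51.3 ± 11.5 CPM (SD, n = 3 each). The genotypes did not overlap (log2 fold change 0.95, SE 0.25, adjusted p = 0.584). Egfl7 (chromosome 2, 26580014 to 26593120), a secreted matrix protein of vessels, was at 48.3, 37.2 and 65.1 CPM in Abca4KO and 36.8, 49.6 and 27.98 CPM in WT, with overlap (log2 fold change 0.40, SE 0.26, adjusted p = 0.809). Its span overlaps Agpat2 on the opposite strand, whose count was 48.3% of that of Egfl7, so its count is uncertain. Mmrn2, the matrix protein that Clec14a and Cd93 bind, was at 26.99, 24.6 and 46.7 CPM in Abca4KO and 19.9, 33.3 and 17.5 CPM in WT (log2 fold change 0.47). Nos3, endothelial nitric oxide synthase, was at 12.4, 9.24 and 9.30 CPM in Abca4KO and 5.50, 16.4 and 5.66 CPM in WT. Rasip1, which acts in vessel lumen formation, was at 9.03, 6.91 and 10.2 CPM in Abca4KO and 7.33, 13.9 and 5.66 CPM in WT. Both had their highest level in WT 2, with log2 fold changes of 0.17 and -0.043, and the sign of each turned when single libraries were left out. Nos3 overlaps Atg9b and Gm15587, whose counts were 8.84% and 7.29% of its own. Rasip1 overlaps A030001D20Rik, Gm45437 and Izumo1, at 7.68%, 2.32% and 1.82% of its count. Some of these also share sequence with them. Partners also overlap Plvap (Gtpbp3, 11.9%) and Eng (Fpgs, 8.84%).

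**Figure D2:**
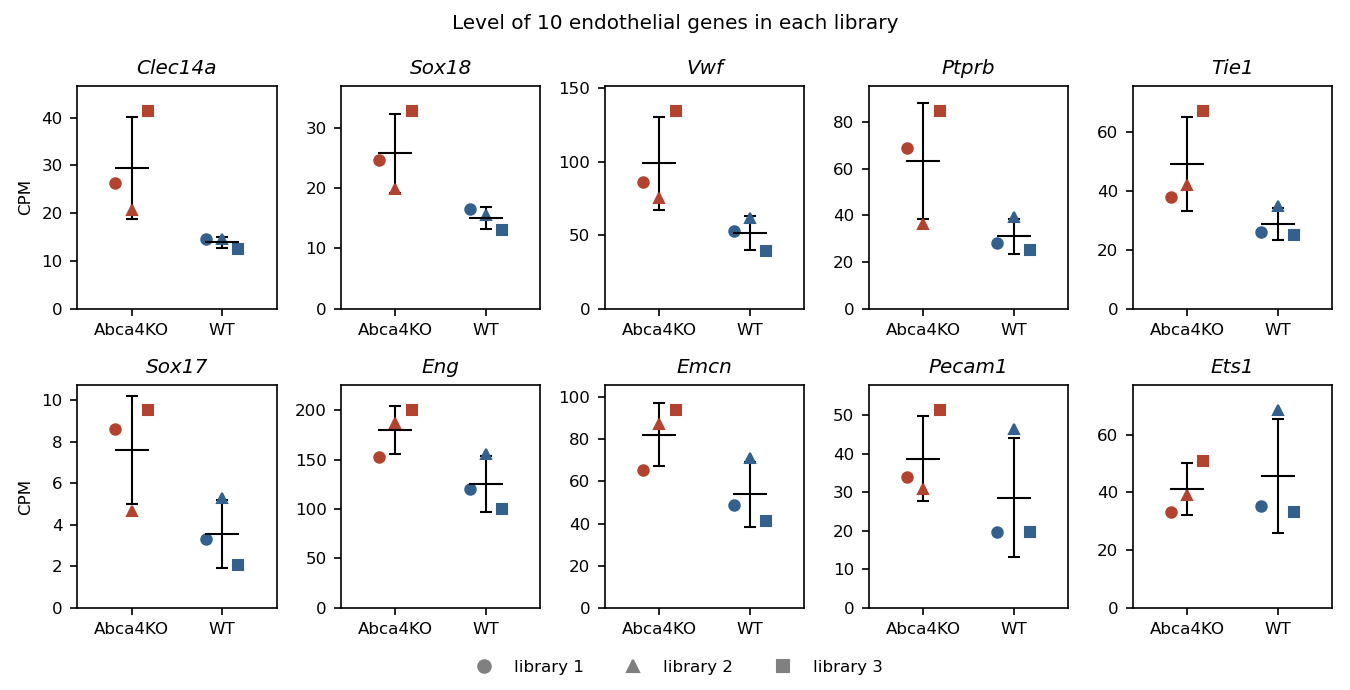
CPM of 10 of the endothelial genes in each library, Abca4KO left of WT, with the marker shape giving the library number, and mean ± SD (n = 3 each) as bars. For Clec14a, Sox18, Vwf and Tie1 all Abca4KO libraries lie above all WT libraries, whereas for Ets1 library WT 2 is the highest of the 6.

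The spread within each genotype was wide and ran through the whole set. The summed level of the 35 genes was 1243, 1291 and 1749 CPM in Abca4KO 1, 2 and 3, against 904 CPM in WT 1, 1370.3 CPM in WT 2 and 775 CPM in WT 3. WT 2 was thus above Abca4KO 1 and 2, and the genotypes overlapped. Abca4KO 3 was the highest of the 6 libraries in 26 of the 34 tested genes, beside 13.2% of all tested genes. WT 3 was the lowest in 27, beside 20.2% of all tested genes, and WT 1 was the lowest in the other 7. The highest library held between 1.48 and 4.61 times the CPM of the lowest, with a median ratio of 2.57 for the 34 genes and 1.53 over all tested genes.

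WT 2 was above both other WT libraries in 32 of the 34 genes, beside 39.8% of all tested genes, by a median ratio of 1.67 to their mean, beside 1.00. This excess was unequal between genes. It was 1.06 for Sox18, 1.08 for Clec14a, 1.26 for Tal1 and 1.27 for Sox7. In 9 genes it was at least 2, with 2.36 for Pecam1, 2.64 for Icam2, 2.68 for Adgrl4, 2.93 for Nos3 and 3.20 for the sparse Gpihbp1. The others of the 9 were Cd93, S1pr1, Fli1 and Rasip1. Pecam1, Icam2, Cd93, S1pr1 and Fli1 are also transcribed by leukocytes. The largest excesses, however, were those of Gpihbp1, Nos3 and Adgrl4, which are described here only for endothelium. Tal1, a factor of blood as well as endothelial development, had only 1.26. Lymphocyte markers, a list added after values were seen, summed to 59.5, 133.2 and 84.4 CPM in Abca4KO 1, 2 and 3, against 58.1, 172.0 and 34.0 CPM in WT 1, 2 and 3. Of these 15 lymphocyte genes 5 were positive and 10 negative (median log2 fold change -0.37), but without WT 2 14 were positive and 1 negative (median 0.80). Of 10 interferon-induced genes, also added after values were seen, 10 were negative (median -1.18), but without WT 2 9 were positive and 1 negative (median 0.21). WT 2 was the highest library in both lists, and the part of leukocytes or of the interferon genes in the WT 2 values of the endothelial genes was not tested.

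Leaving out WT 2 turned most genes into separated ones. Of the summed levels of these genes, WT 2 had the highest in WT and Abca4KO 1 the lowest in Abca4KO. Leaving them out therefore widens the difference by construction, and the counts without them are no independent support for it. WT 1 and WT 3 were both below all 3 Abca4KO libraries in 30 of the 34 genes, beside 14.0% of all tested genes, and the mean of the Abca4KO libraries was a median 1.75 times that of WT 1 and WT 3. In the fit without WT 2, where Aplnr could also be tested, 35 of 35 genes were positive (beside 52.3% of all genes), the median log2 fold change was 0.80, and 28 were higher at an unadjusted p under 0.05, beside 6.11% of all genes tested in that fit. Still 0 passed an adjusted p of 0.05 in edgeR. The smallest was 0.2003 for Emcn, and 0.0617% of all genes passed. Without both WT 2 and Abca4KO 1, 6 passed (Emcn, Eng, Cd93, Plxnd1, Esam and Adgrl4, beside 1.09% of all genes, with adjusted p from 0.0133 to 0.0412 in edgeR), none of them among the 3 that DESeq2 called with all libraries. In that fit 29 were higher at an unadjusted p under 0.05, beside 8.80% of all genes, and 32 were separated, beside 24.0%. Passing there was not particular to the endothelial genes. The same fit called 4 of 15 macrophage markers (13 positive) and 4 of 12 rod markers (0 positive). Without Abca4KO 3 the median log2 fold change of the endothelial genes was 0.31, 31 of 34 were positive and 5 were higher at an unadjusted p under 0.05, beside 2.00% of all genes. The number at that limit was 5 without WT 1 (2.37% of all genes) and 6 without WT 3 (3.28%). Without Abca4KO 1 the genotypes were separated in 11 genes (12.6% of all genes) and without Abca4KO 2 in 12 (9.64%).

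**Figure D3:**
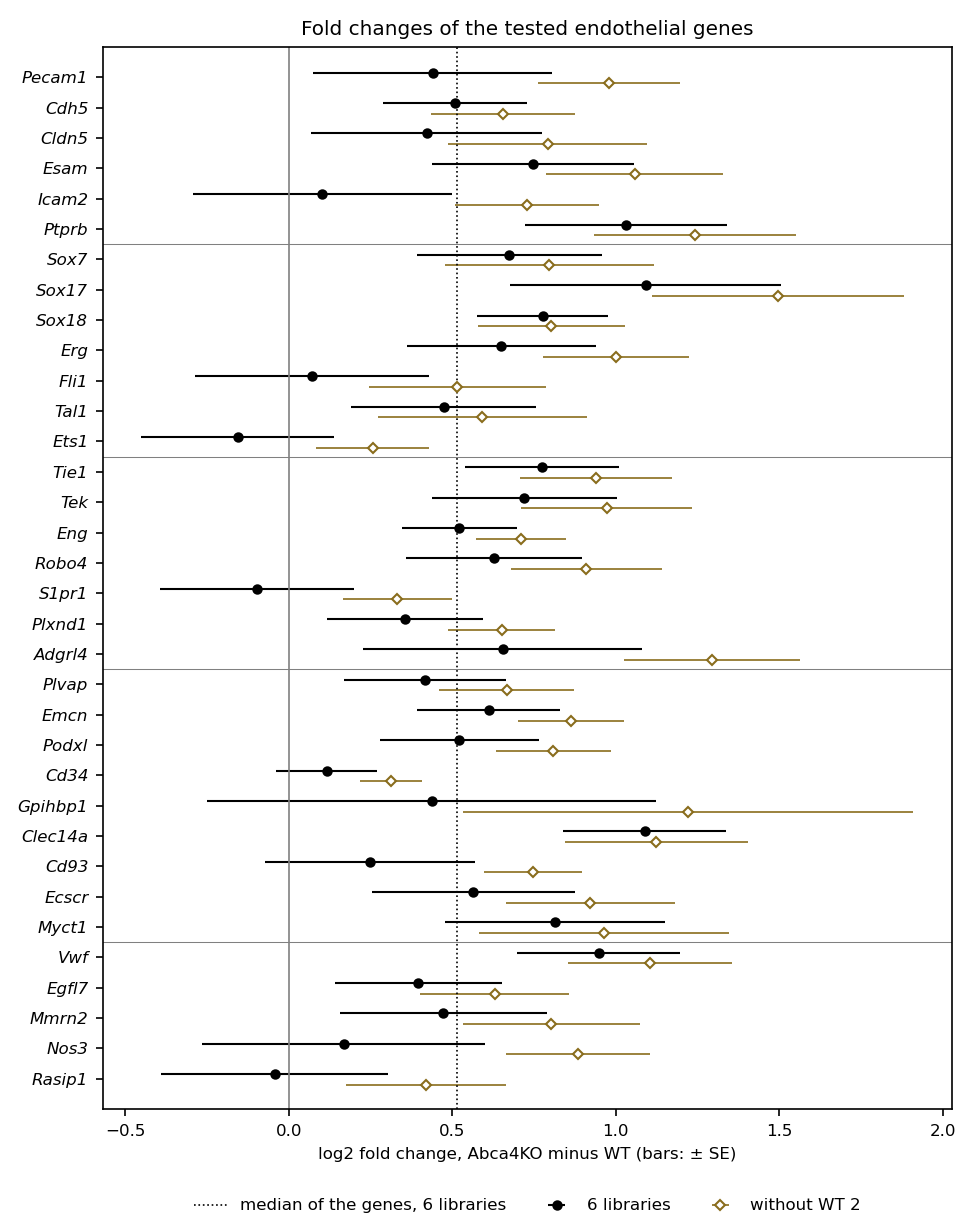
Log2 fold change (Abca4KO minus WT) with its standard error for each tested endothelial gene, from all 6 libraries (black circles) and without WT 2 (open diamonds). The median over the 34 genes with all libraries, 0.52, is the dotted line. Without WT 2 every point lies right of 0, and the points of Clec14a (1.12) and Sox18 (0.80) lie close to those from all libraries (1.09 and 0.78).

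Further lists show other genes of vessels. Of 22 further endothelial genes outside the 35, 17 were positive and 5 negative. Their median log2 fold change was 0.28 (0.48 without WT 2), and 0 passed in edgeR, with 1 higher at an unadjusted p under 0.05, beside 3.15% of all tested genes. The smallest p-values were those of She (log2 fold change 0.64, at 12.8, 16.3 and 15.8 CPM in Abca4KO and 8.59, 9.93 and 10.4 CPM in WT, adjusted p = 0.556), Ushbp1 (0.57) and Arhgef15 (0.49). She did not overlap between the genotypes, and here WT 2 was not the highest WT library. Rhoj, at 81.9 to 85.5 CPM in Abca4KO and 79.9 to 89.0 CPM in WT, is expressed in endothelium too and had closely spaced values.

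Ligands and receptors of vessel growth gave 11 positive and 5 negative values of 16 tested. Their median log2 fold change was 0.23, and 0 passed in edgeR, with 1 higher at an unadjusted p under 0.05, beside 3.15% of all tested genes. The angiogenic receptor gene Kdr was at 69.0, 66.2 and 117.2 CPM in Abca4KO and 56.2, 61.5 and 49.9 CPM in WT, without overlap (log2 fold change 0.59, adjusted p = 0.691). The Tek ligand Angpt1 (log2 fold change 0.37) and the growth factor Vegfb (0.25) followed by p-value. Vegfa, the growth factor that the RPE itself secretes towards the choriocapillaris, was at 612 to 713 CPM in Abca4KO and 540.6 to 715 CPM in WT (log2 fold change 0.060). Among 6 genes noted in the choriocapillaris, 4 were positive (median 0.46, 0.16 without Abca4KO 2). With all libraries 0 passed in edgeR or DESeq2, and 3 were higher at an unadjusted p under 0.05 in edgeR, beside 3.15% of all tested genes. These 3 were Igfbp3 (0.67), Kdr and Car4 (1.00), the carbonic anhydrase of choriocapillaris endothelium. Kdr is counted in both this list and that of ligands and receptors. Car4 measured only 2.27 to 3.04 CPM in Abca4KO and 0.752 to 1.74 CPM in WT.

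Of 11 genes of retinal and brain endothelium 9 were positive, and the median log2 fold change was 0.10 (0.41 without WT 2). One of them, the thyroid hormone transporter gene Slco1c1, passed and rose in Abca4KO (log2 fold change 1.32, adjusted p = 0.0247). Slco1c1 was at 128, 124 and 135 CPM in Abca4KO and 58.7, 42.6 and 53.9 CPM in WT. WT 2 was its lowest library, and Abca4KO 3 was the highest by a small margin. By contrast, WT 2 was above both other WT libraries in 32 of the 34 tested endothelial genes. Which cells transcribed Slco1c1 was not tested. With WT 1, WT 3 or any single Abca4KO library left out, 0 of the 11 genes passed in edgeR, while 1 passed without WT 2. Next by p-value were Itm2a (0.42) and Foxf2 (0.46), so that 3 of the 11 were higher at an unadjusted p under 0.05, beside 3.15% of all tested genes. Lymphatic markers gave 3 positive and 2 negative values of 5 tested (median 0.054), led by Prox1 (-0.94), Reln (1.10) and Flt4 (0.30), and the lymphatic genes Mmrn1 and Ccl21a had too few counts to test.

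Markers of other cells that the sample could hold moved in part with the same libraries. Mural cell markers summed to 801, 787 and 894 CPM in Abca4KO and 703, 735 and 587 CPM in WT, without overlap. The largest share was Rgs5, at 391, 397 and 433 CPM in Abca4KO and 286, 316 and 190 CPM in WT. The next most abundant, Acta2 (log2 fold change -0.0096) and Pdgfrb (0.0043), overlapped between the genotypes. The separation of the sum is therefore not one of the mural markers as a class. Of 12 tested 10 were positive, the median log2 fold change was 0.13, and the smallest p-values were those of Rgs5 (0.62), Cspg4 (-0.31) and Myh11 (0.70). Fibroblast and sclera markers summed to 2163 to 2657 CPM in Abca4KO and 1836 to 2137 CPM in WT, with 11 of 15 positive and a median of 0.24, led by Col3a1 (0.56), Lox (0.63) and Col1a1 (0.49). Macrophage markers summed to 3797 to 6776 CPM in Abca4KO and 2269 to 4245 CPM in WT, with 10 of 15 positive and a median of 0.24 (0.95 without WT 2, 0.027 without WT 3, 0.049 without Abca4KO 2), led by Cd68 (0.94), Ctss (1.42) and Lyz2 (0.90). The largest share of this sum was Lyz2, at 2110 to 3937 CPM in Abca4KO and 1179 to 2002 CPM in WT. The other 5 were negative, and of these Csf1r (-0.12) was lower in Abca4KO without overlap. Melanocyte markers summed to 5057 to 6411 CPM in Abca4KO and 3413 to 5203 CPM in WT, lowest in WT 2. Of these 5 of 8 were positive, with a median of 0.41 (0.18 without WT 2), led by Kit (-0.44), Mlana (0.68) and Pmel (0.65). Most of the sum was the pigment gene Dct, at 2692 to 3313 CPM in Abca4KO and 1753 to 2683 CPM in WT. Whether the pigment genes came from melanocytes or from the RPE was not tested. Red cell and platelet genes summed to 1099.5 to 2578 CPM in Abca4KO and 1123 to 1785 CPM in WT, with 7 of 7 positive and a median of 0.20 (3 of 7 positive and -0.24 without Abca4KO 2), led by Pf4 (0.94), Hbb-bt (0.48) and Hba-a2 (0.55). Rod markers summed to 1055 to 3479 CPM in Abca4KO and 702.7 to 1831 CPM in WT, with 11 of 12 positive and a median of 0.42 (0 of 12 positive and -0.34 without Abca4KO 1), led by Rcvrn (0.63), Sag (0.69) and Gnat1 (0.52). RPE markers summed to 37985 to 40444 CPM in Abca4KO and 33312 to 42032 CPM in WT, lowest in WT 2, with 6 of 11 positive and a median of 0.028 (-0.031 without WT 2), led by Kcnj13 (0.38), Lrat (-0.37) and Rdh5 (0.21). Of these 7 lists, edgeR without WT 2 and Abca4KO 1 called 4 of 15 macrophage, 4 of 12 rod, 2 of 8 melanocyte and 1 of 15 fibroblast genes. With all 6 libraries edgeR called 0, while DESeq2 called 2 fibroblast genes and 1 each of the mural, macrophage, melanocyte and RPE lists. At an unadjusted p under 0.05 in edgeR, 3 mural genes were higher and 1 lower, 4 fibroblast genes higher, 3 macrophage genes higher, 3 melanocyte genes higher and 1 lower, 1 RPE gene higher and 1 lower, and 0 of the rod and red cell lists, beside 3.15% of all tested genes higher and 7.02% in either direction. The summed rod markers were highest in Abca4KO 1 and the summed macrophage and fibroblast markers in Abca4KO 2. Gene by gene, WT 2 was above both other WT libraries in 13 of 15 macrophage genes and WT 3 was the lowest of the 6 in 13, and the mean log2 CPM of the list was 5.75, 6.54 and 6.14 in Abca4KO 1, 2 and 3 against 5.65, 6.57 and 5.05 in WT 1, 2 and 3. The macrophage markers thus shared the high WT 2 and low WT 3 values of the endothelial genes. The part of these other cells in the endothelial values was not tested.

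**Figure D4:**
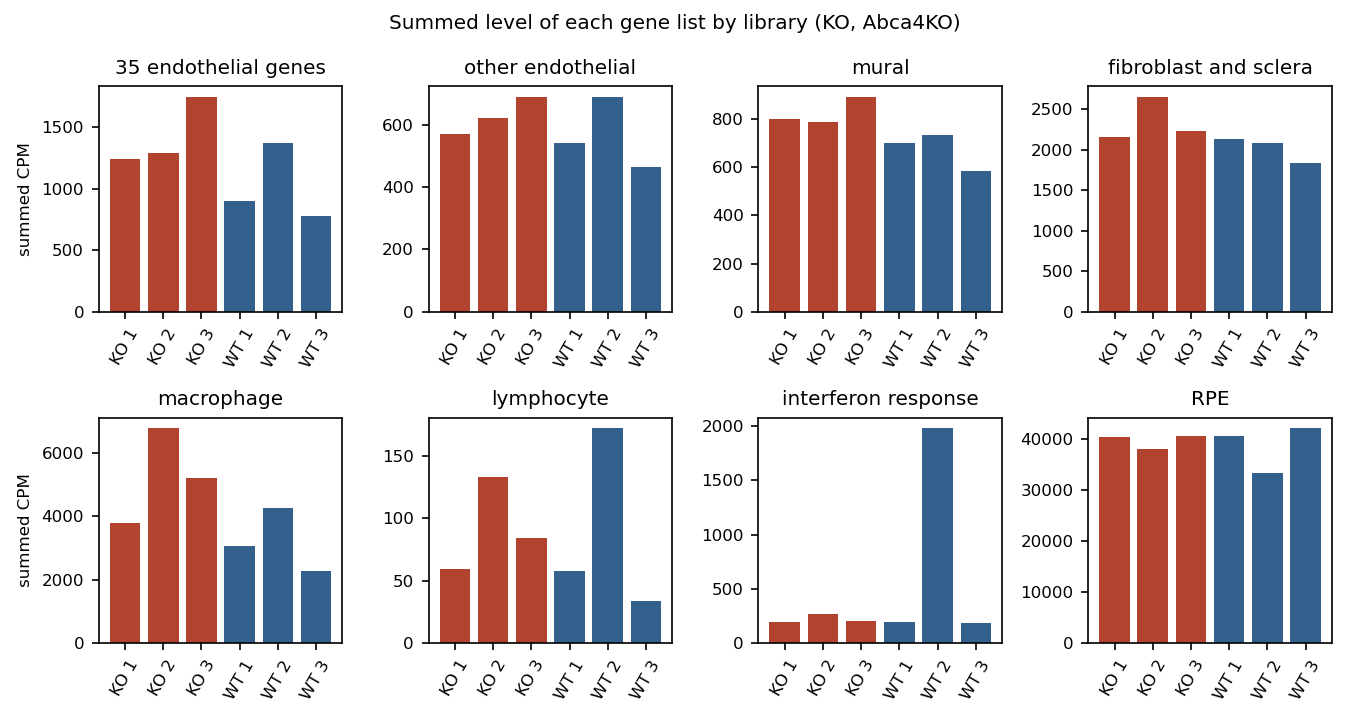
Summed CPM of each gene list in each library, Abca4KO (red) left of WT (blue), each panel with its own axis from 0. The 35 endothelial genes and the mural markers are highest in Abca4KO 3, the macrophage markers in Abca4KO 2, and the lymphocyte and interferon-response genes in WT 2.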

How the data were processed

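Bulk RNA-seq of RPE from 3 Abca4KO and 3 WT mice was analysed. Per the labels' protocols, RNAqueous-Micro was used for extraction and NEBNext Ultra RNA for the libraries. The authors deposited raw read counts per gene, whole numbers for 54532 genes, with gene lengths and mm10 coordinates. STAR, HTSeq and mm10 are named, without versions or roles, in the submitters' processing notes. Strand use and annotation release are not given in the sources used here, so genes on opposite strands of one stretch cannot be told apart.

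Genes were filtered with filterByExpr (minimum count 10, 17340 genes kept), scaled by TMM and tested with edgeR 4.0.16 in R 4.3.3 (2-sided quasi-likelihood test, no covariate, Benjamini-Hochberg adjustment over all tested genes, threshold 0.05). Fold changes are log2 of Abca4KO over WT with a prior count of 0.125, and the SE is the size of the fold change over the root of F. CPM uses TMM-scaled library sizes. DESeq2 1.42.0 and limma 3.58.1, other scalings and filters, the replicate block and left-out libraries were the alternatives. The model was tested on simulated data. Library pairs differed by at least 13.6 in chi-square per degree of freedom, so none was counted as a copy of another. Overlapping genes, and similar GENCODE M21 transcripts found with BLAST 2.17.0 (at least 95% identity over 200 bases), were searched for the 35 genes. Each gene was placed in 1 of 5 role groups. All 35 are given, with SE and adjusted p for the 2 smallest p-values of each group and the 5 smallest of the 35, and with 3 examples by p-value for each of 12 other lists. Rhoj, Vegfa, Slco1a4, Mfsd2a, the marker levels and the lymphocyte and interferon lists were chosen after values were seen. The planned comparison of SOXF proteins was not made, since no protein table was used here. Per the series design, replicates were separate mice. The 35 genes and the lists were chosen with earlier results of these data known.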

Additional observations from a re-analysis of the deposited data

How the results depend on the processing

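The number of positive genes, 31 of 34 as reported, was 28 to 35 of 34 or 35 under the 15 alternatives, and 28 of the 31 were positive under every one. The median log2 fold change, 0.52 as reported, was positive throughout (0.31 to 0.84). Of 510 log2 fold changes of single genes under alternatives, 484 kept their sign and side of the threshold, 9 passed the threshold newly (3 in DESeq2 and 6 without WT 2 and Abca4KO 1) and 17, from 6 genes, turned sign. The turned values were -0.092 and -0.16 for Icam2 and -0.096 and -0.072 for Nos3 without WT 1 and without WT 3, and -0.22 and -0.064 for Fli1 without WT 3 and without Abca4KO 2. For Ets1 they were 0.26 with limma-voom, 0.26 without WT 2 and 0.37 without WT 2 and Abca4KO 1, and for S1pr1 0.41, 0.33 and 0.38 in the same order. For Rasip1 they were 0.31 with limma-voom, 0.044 with the replicate block, 0.42 without WT 2, 0.10 without Abca4KO 2 and 0.38 without WT 2 and Abca4KO 1. Without single libraries Icam2 ranged from -0.16 to 0.73, Ets1 from -0.34 to 0.26, S1pr1 from -0.34 to 0.33, Nos3 from -0.096 to 0.89 and Rasip1 from -0.28 to 0.42. Over all genes, 8 passed as reported, 19 without a low count filter, 106 in DESeq2, 31 with limma-voom, 3 to 11 without single libraries and 190 without WT 2 and Abca4KO 1. Of the endothelial genes, 0 passed as reported, 3 in DESeq2, 0 without single libraries and 6 without WT 2 and Abca4KO 1. The count at an unadjusted p under 0.05, 12 as reported, was 29 with limma-voom, which gave WT 2 a sample weight of 0.373, 5 to 28 without single libraries and 29 without WT 2 and Abca4KO 1. The count of genes without overlap, 6 as reported, was 6 to 30 without single libraries (11 without Abca4KO 1, 12 without Abca4KO 2) and 32 without WT 2 and Abca4KO 1. Leaving out WT 2 and Abca4KO 1 removes the highest WT and the lowest Abca4KO summed level of these genes. Beyond this and fewer samples, the cause of these shifts was not tested. With the replicate block 0 endothelial genes passed, 10 had an unadjusted p under 0.05 (beside 6.89% of all genes) and 9 genes passed in all. Same-numbered libraries deviated from their genotype means together with r of 0.167, 0.344 and -0.076 over all genes. The r of 0.344, for the libraries numbered 2, was the highest of any pair, while Abca4KO 1 correlated best with WT 3 (0.308). Deviations from a mean of 3 libraries are tied to one another, so these values cannot settle whether the numbers pair the mice. Under the scalings tried the median of all tested genes lay between -0.012 and 0.0034. Gpihbp1 and Aplnr are limited by depth.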

Other observations

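Within the Abca4KO libraries the endothelial genes did not keep one ratio. Abca4KO 2 was below Abca4KO 1 in 16 of the 34 tested genes and above it in the rest. Its ratio to Abca4KO 1 was 0.529 for Ptprb, 0.538 for Sox17, 0.575 for Cldn5 and 0.639 for Tek, against 1.52 for Fli1, 1.43 for Myct1, 1.42 for Esam, 1.38 for Cd93 and 1.33 for Emcn. These examples were chosen after their values were seen.

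Of the 35 genes 3 lie on chromosome 3, as Abca4 does: S1pr1 (115710433 to 115715072), Emcn and Adgrl4 (151437887 to 151545086). Their log2 fold changes were -0.097, 0.61 and 0.65, inside the range of the other genes.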
